A study of Mus musculus with 12 samples.

Results

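Neuropeptide precursor genes encode the proteins from which cortical neurons cut their peptide transmitters. Their mRNA was measured by RNA sequencing in auditory cortex dissected from acute coronal brain slices, and 10 of them are described here: Sst, Vip, Npy, Cck, Cort, Tac1, Penk, Pdyn, Crh and Adcyap1. They were chosen by gene symbol from a list of precursors made in the cortex, with earlier results of these data known. No measured level was part of the rule. Each matched 1 locus of the 20989 in the deposited tables. All 10 were among the 12032 loci with a mean of at least 1 FPKM (a count of read fragments divided by transcript length and by sequencing depth), and only loci above that limit were tested.

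The slices came from 6 C57bl6/J mice, 4-week old, with no transgene. The slices were cut along the midline, so that each mouse gave 1 hemisphere to each group. The 6 control hemispheres stayed for 1 h in artificial cerebrospinal fluid (aCSF). The 6 cocktail hemispheres spent that 1 h in aCSF with 50 µM bicuculline methiodide, which blocks GABA A receptors, 100 µM norepinephrine, 100 µM dopamine, 100 µM serotonin, 50 µM carbamoylcholine, an agonist of acetylcholine receptors, and 40 µM ascorbic acid. The study's methods add a further rest of 1 h in plain aCSF for both groups. The comparison asks which precursor mRNAs differ after pharmacological activation of the slice.

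A precursor is made at the endoplasmic reticulum, sorted into dense-core vesicles, cut there by prohormone convertases and trimmed by carboxypeptidase E. The finished peptides are released mainly during sustained firing and act on G protein-coupled receptors, over slower times and longer distances than GABA or glutamate. In the cortex, somatostatin, vasoactive intestinal peptide, neuropeptide Y and cortistatin are made mostly by GABAergic interneurons and serve as names for their classes, whereas cholecystokinin is made by interneurons and by many pyramidal cells. Transcription of several precursor genes is known to follow neuronal activity through the cAMP response element, to which the factor CREB binds.

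That element was looked for in front of these genes. RefSeq promoter sequences (GRCm38, the build of the deposited coordinates, mm10) were at hand for 8 of the 10 genes. Crh and Penk had no sequence there and were not searched, so nothing is said of the element in them. For the 8 genes, the 250 bases before each start were searched on both strands. Of these 8, only Sst had the full palindrome TGACGTCA, and 1.55% of the 32851 promoters in the RefSeq table held it. Its core, TGACG or CGTCA on the other strand, which the palindrome contains, was found for 6 of the 8 genes, namely Sst, Vip, Cck, Tac1, Adcyap1 and Cort, and in 17.8% of all promoters. Neither Npy nor Pdyn held these letters in the window. In Cck, Tac1 and Cort the nearest core began 47, 43 and 18 bases before the start, and their stretches are not shown. A match of letters is a description and not a binding site, and a link between the letters and a difference in level was not tested. The 3 stretches below are shown because Sst has the whole palindrome and Vip and Adcyap1 have the core followed by the same letters, and because Adcyap1 came closest of the 10 genes to the threshold for a difference. They are written 5′ to 3′ on the strand of the gene, with the core letters in capitals.
Sst (chr16:23890845-23890924, minus strand): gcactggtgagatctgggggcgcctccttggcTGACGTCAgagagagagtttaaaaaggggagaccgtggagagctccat
Vip (chr10:5639138-5639217, plus strand): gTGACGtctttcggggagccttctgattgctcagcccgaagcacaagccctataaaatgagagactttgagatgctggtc
Adcyap1 (chr17:93198918-93198997, plus strand): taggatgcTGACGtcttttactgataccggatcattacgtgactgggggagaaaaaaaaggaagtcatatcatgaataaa
The Sst and Vip stretches end at the base before the RefSeq start. The Adcyap1 stretch is placed around its core, which is 242 bases before 1 of the RefSeq starts of the gene (the one closest to the deposited locus) and 91 bases before the other.

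All 12 libraries are reported, with 10601092 to 19768836 reads recovered from the FPKM intervals, and a counting SD given below covers the counting of reads alone. Control mouse 1 stood apart, with the lowest summed FPKM, 290155, against 306085 to 321759 in the other 11 libraries, and values of the 10 genes that change sign or move by over 1.5 times without this mouse are given with the gene. The tissue had the markers of cortex, with 8 of 8 excitatory neuron markers and 22 of 22 interneuron markers above 0 in all libraries, and a summed level of hippocampal markers that ran from 4.25 to 36.1 FPKM. Bulk RNA cannot tell fewer cells of a type from less RNA per cell.

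None of the 10 precursor genes passed the test. The test was limma on log2(FPKM + 1) with the mouse as a block, a Benjamini-Hochberg adjusted p under 0.05 over all 12032 loci counting as a call. By that rule 180 loci (1.50%) were called, 147 higher and 33 lower in the cocktail, and 0 of them were precursors on the list. At an unadjusted p under 0.05 limma had 2 of the 10, Crh and Adcyap1, against 8.05% of all loci. A voom fit on the recovered reads called 0 of the 10 at an adjusted p under 0.05, against 0.981% of all loci. At an unadjusted p under 0.05 voom had 2 of the 10. The share of all loci at that limit is not given for voom, so these 2 cannot be set against it. Among the 10 genes, 6 were higher and 4 lower in the fit, with a median difference of 0.04 on the log2 scale against 0.01 over all loci. No precursor had a difference of 1 sign in all 6 mice, which 6.30% of loci had, and none had groups that did not overlap, as 0.914% of loci had. These counts do not show that the levels were equal, and the 95% interval of each difference is given with the gene.

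**Figure D1:**
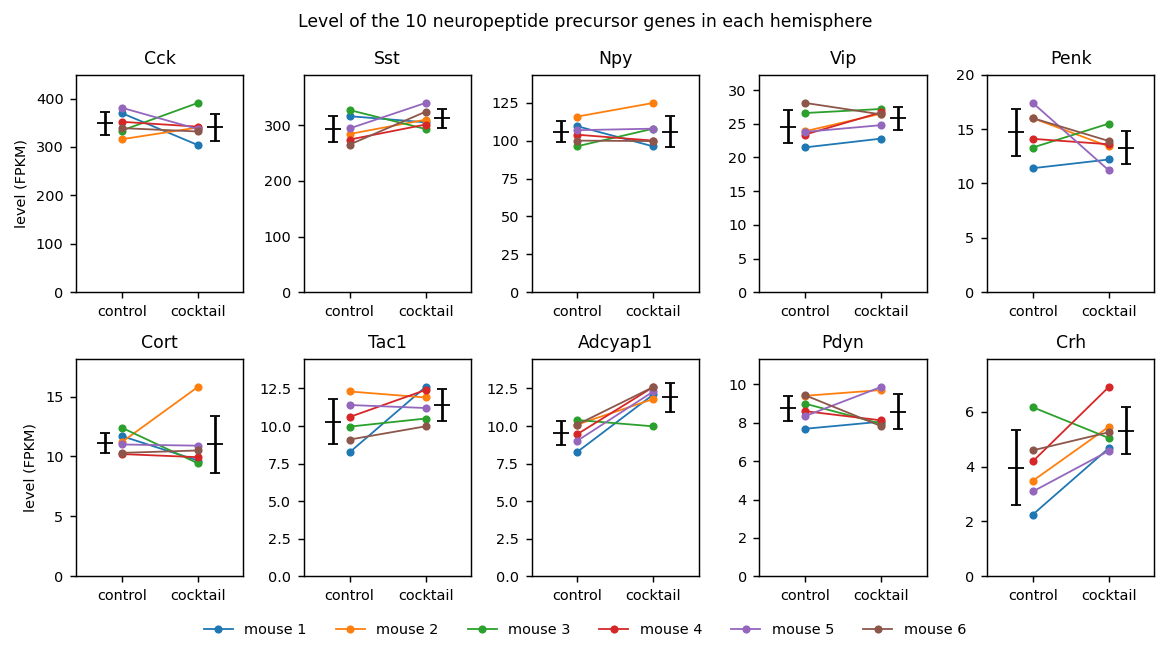
Level in FPKM (vertical axes, linear from 0) of the 10 precursor genes in control and cocktail hemispheres, 1 panel per gene in order of the control mean, with lines joining the hemispheres of a mouse and black bars for the mean ± SD of 6. The lines cross within most panels, while for Adcyap1 and Crh they run upwards in 5 of 6 mice, mouse 3 being the exception.

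Cck and the interneuron peptides Sst, Npy and Vip had the highest levels of the set. In control hemispheres Cck had a mean of 349 ± 24.0 FPKM (SD, n = 6) and Sst 293 ± 24.2, and the pair made up 77.3% of the summed level of the 10 genes, against 77.1% in cocktail hemispheres. Npy followed at 106 ± 7.11 FPKM and Vip at 24.6 ± 2.39. Then came Penk at 14.7 ± 2.18, Cort at 11.1 ± 0.84, Tac1 at 10.3 ± 1.5, Adcyap1 at 9.55 ± 0.795, Pdyn at 8.75 ± 0.672 and Crh at 3.96 ± 1.36 FPKM. By level Cck was locus 75 and Sst locus 105 of the 12032 tested, while Crh was at 9249.

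Neighbours in this order were compared within control libraries with exact permutation of the signs (two-sided), whose smallest p with 6 libraries is 0.031. Of the 9 neighbouring pairs, 6 kept their order in all 6 libraries and had an adjusted p of 0.0469 over the 9, by the same exact test. These were Cck over Sst, with a ratio of 1.19, Sst over Npy, Npy over Vip, Vip over Penk, Adcyap1 over Pdyn and Pdyn over Crh. Penk over Cort (exact adjusted p = 0.0804), Cort over Tac1 and Tac1 over Adcyap1 (both exact adjusted p = 0.344) did not differ beyond their spread. In cocktail libraries the order below Penk was Adcyap1, Tac1, Cort, Pdyn and Crh, so that the 9 neighbouring pairs were partly others. Cck was above Sst in 4 of 6 cocktail libraries, and 0 of those 9 pairs passed, the smallest adjusted p of the exact test being 0.0563. With 6 libraries a pair can pass this adjustment only where enough other pairs are at the smallest p too.

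Adcyap1 (chr17:93199422-93205489 in mm10, plus strand) encodes PACAP, a peptide that raises cAMP in its target cells. Control hemispheres of mice 1 to 6 had 8.28, 10.1, 10.4, 9.46, 9.02 and 10.1 FPKM, and cocktail hemispheres 12.1, 11.8, 9.98, 12.6, 12.3 and 12.6. Every cocktail value but that of mouse 3 lay above all 6 control values, and the cocktail hemisphere of mouse 3 lay among them. The fitted difference was 0.29 on the log2(FPKM + 1) scale (SE 0.069, 95% interval 0.14 to 0.44), a fold of 1.22. It was higher in 5 of 6 mice, with a limma adjusted p of 0.0722 and an exact sign-flip permutation p of 0.0625, unadjusted. Between 216 and 426 reads stood behind each value.

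Crh (chr3:19693401-19695396, minus strand), the precursor of corticotropin-releasing hormone, which cortical interneurons make and which the hypothalamus uses to drive the stress axis, had the largest fitted difference and the lowest level of the 10. Control hemispheres of mice 1 to 6 had 2.25, 3.48, 6.16, 4.19, 3.09 and 4.59 FPKM, and cocktail hemispheres 4.67, 5.45, 5.04, 6.9, 4.57 and 5.25. The groups overlapped: the control hemisphere of mouse 3 was above 5 of the 6 cocktail hemispheres, and the other 5 mice were higher in the cocktail. The difference was 0.38 (SE 0.11, 95% interval 0.14 to 0.63, fold 1.3), with a limma adjusted p of 0.196 and an exact sign-flip permutation p of 0.09375, unadjusted. Between 70 and 156 reads stood behind a value.

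Neither gene was called with all mice, and each was called only when mouse 3 was left out. Without its 2 hemispheres limma called Adcyap1, at 0.36 with an adjusted p of 0.0199, and Crh, at 0.51 with an adjusted p of 0.0214, along with 1.01% of the 12024 loci then tested. Both genes were lower in the cocktail in that mouse alone, by a log2 difference of -0.05 for Adcyap1 and -0.25 for Crh. Leaving out mouse 3 was therefore bound to raise both estimates, and these calls are no separate support for a difference. Leaving out mouse 1, whose control library stood apart, gave 0.25 with a limma adjusted p of 0.148 for Adcyap1 and 0.3 with 0.388 for Crh. The summed level of 22 interneuron markers that are not peptides was higher in the cocktail in 6 of 6 mice, 489 to 521 FPKM against 470 to 496 in control. A covariate was made from the mean log2(FPKM + 1) of the 19 of these markers that averaged at least 1 FPKM. With it, limma put Adcyap1 at 0.27 (SE 0.109, adjusted p = 0.724) and Crh at 0.41 (SE 0.177, adjusted p = 0.762).

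**Figure D2:**
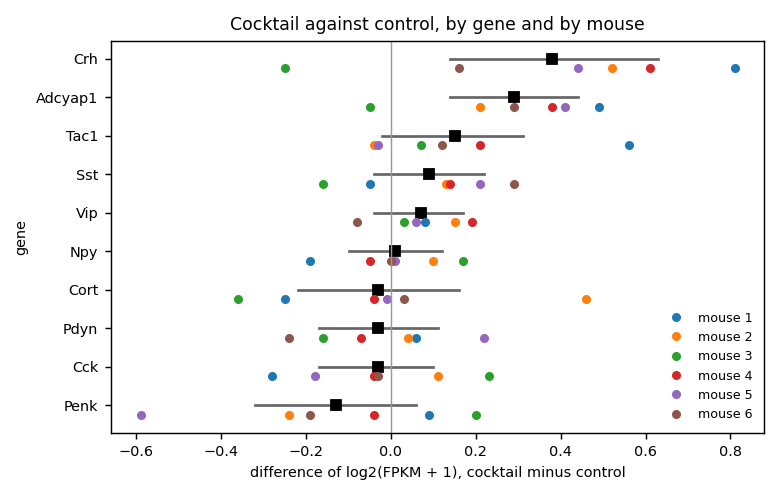
Difference of log2(FPKM + 1), cocktail minus control, for each precursor gene (vertical axis, in order of the fitted difference). Squares with lines give the limma estimate with its 95% interval and coloured points the 6 mice. The intervals of Crh and Adcyap1 lie above 0 and those of the other 8 genes cross it.

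Sst, Npy, Vip and Cort are the interneuron peptides, and none differed beyond the spread over mice. Sst, whose cells inhibit the dendrites of pyramidal neurons, ran from 265 to 327 FPKM in control with a median of 289, and from 293 to 339.8 in cocktail with a median of 307. It was higher in 4 of 6 mice, and control and cocktail values overlapped over most of their range. The difference was 0.09 (SE 0.059, 95% interval -0.04 to 0.22, limma adjusted p = 0.783). On recovered reads, voom gave 0.01.

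Vip marks interneurons that inhibit other interneurons. It ran from 21.5 to 28.1 FPKM in control with a median of 23.9, and from 22.8 to 27.2 in cocktail with a median of 26.5. The cocktail hemisphere was higher in 5 of 6 mice and mouse 6 was the exception. The difference was 0.07 (SE 0.048, 95% interval -0.04 to 0.17, limma adjusted p = 0.805).

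Npy, made by neurogliaform cells and by part of the Sst cells, ran from 96.4 to 116 FPKM in control with a median of 105, and from 96.3 to 125 in cocktail with a median of 104. It was higher in 3 mice and lower in 3, with a difference of 0.01 (SE 0.05, 95% interval -0.10 to 0.12, limma adjusted p = 0.991), and 0.04 without mouse 1. The interval of its fold, 0.93 to 1.08, was among the narrowest of the set. Cort, encoding cortistatin, a peptide close to somatostatin that binds the same receptors, ran from 10.2 to 12.4 FPKM in control with a median of 11.1, and from 9.43 to 15.8 in cocktail with a median of 10.2. Only the cocktail hemisphere of mouse 2 lay above all control values. The difference was -0.03 (SE 0.088, 95% interval -0.22 to 0.16, limma adjusted p = 0.967) on 61 to 126 reads, the fewest of the set, and 0.02 without mouse 1.

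Cck encodes cholecystokinin, the most abundant precursor measured. It ran from 316 to 381 FPKM in control with a median of 345, and from 304 to 391 in cocktail with a median of 339, so that the control range lay inside the cocktail range. Mouse 3 had the highest cocktail value and mouse 1 the lowest. The difference was -0.03 (SE 0.063, 95% interval -0.17 to 0.10, limma adjusted p = 0.943), and 0.02 without mouse 1.

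Tac1 encodes substance P and neurokinin A. It ran from 8.25 to 12.3 FPKM in control with a median of 10.3, and from 9.98 to 12.6 in cocktail with a median of 11.6. The lowest control value and the highest cocktail value both came from mouse 1, the mouse with the library that stood apart. The difference was 0.15 (SE 0.074, 95% interval -0.02 to 0.31, limma adjusted p = 0.683), and 0.07 without mouse 1.

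Penk and Pdyn are the opioid precursors, the first giving enkephalins, which act mainly on delta and mu receptors, and the second dynorphins, which act on kappa receptors. Penk ran from 11.4 to 17.4 FPKM in control with a median of 15, and from 11.2 to 15.5 in cocktail with a median of 13.5. It was lower in 4 of 6 mice, mouse 5 by the most, -0.59. The difference was -0.13 (SE 0.087, 95% interval -0.32 to 0.06, limma adjusted p = 0.793), and -0.03 without mouse 5. Penk is also a main product of striatal neurons, and 12 striatal markers summed to 84.9 to 113 FPKM in control and 93.7 to 106 in cocktail. Of these, Drd2, which striatal Penk neurons carry, was at 0.721 ± 0.184 and 0.482 ± 0.229 FPKM (SD, n = 6 each). A covariate was made from the 7 striatal markers with a mean of at least 1 FPKM, which leaves out Drd2. With it, limma put Penk at -0.02 (adjusted p = 0.946), Tac1 at 0.25 (adjusted p = 0.139) and Cort at -0.15 (adjusted p = 0.393). In the GENCODE M21 annotation Penk shares 157 exon bases with A830012C17Rik on the opposite strand. The study's methods describe the reads as strand-specific, but the strand setting of the FPKM estimates is not given in the sources used here.

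Pdyn ran from 7.69 to 9.44 FPKM in control with a median of 8.81, and from 7.83 to 9.87 in cocktail with a median of 8.10. It was higher in 3 mice and lower in 3, and the ranges nearly coincided. The difference was -0.03 (SE 0.064, 95% interval -0.17 to 0.11, limma adjusted p = 0.956). With the striatal marker covariate limma put Pdyn at -0.07 (adjusted p = 0.671). Granule cells of the hippocampus also make dynorphin, and the hippocampal markers summed to 4.25 to 29.5 FPKM in control and 5.71 to 36.1 in cocktail. Their part in the Pdyn values was not tested.

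The hemispheres of a mouse differed by more than the counting of reads gives for most of the genes. For Cck the within-mouse log2 differences had an SD of 0.18, which was 5.5 times the 0.033 that counting of reads would give, and for Sst 0.17 against 0.041. At the other end Vip had 0.095 against 0.077 and Cort 0.28 against 0.2, so that counting error was of nearly the same size there. Crh varied most of all, with an SD of 0.37 against 0.16 from counting, and its highest library was 3.07 times its lowest, against 1.28 to 1.67 times for the other 9 genes.

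**Figure D3:**
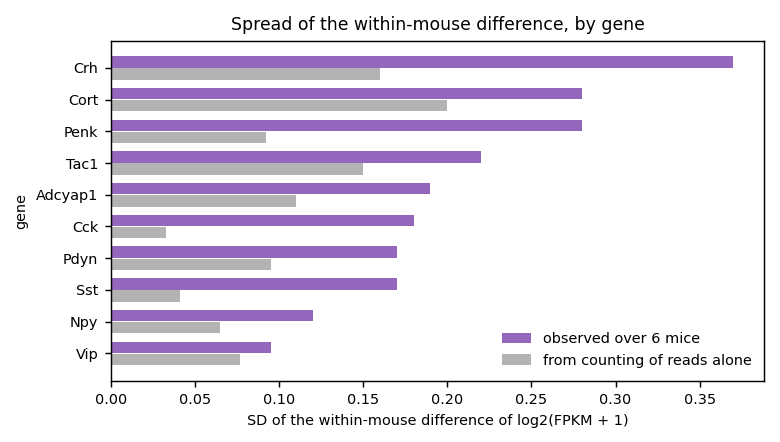
SD over 6 mice of the within-mouse difference of log2(FPKM + 1) (purple bars) beside the SD that counting of reads alone would give (grey bars), for each precursor gene. For Cck and Sst the observed SD is over 4 times the counting SD, and for Vip it is 1.2 times.

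Dense-core vesicle proteins were the only group around the precursors with a call, 1 of 10 genes, where 1.50% of all loci were called. At an unadjusted p under 0.05 limma had 2 of the 10 (8.05% of all loci). So few genes are no result about the group. The called gene was Scg2, encoding secretogranin II, a granin that helps form the vesicles and is itself cut into peptides. It rose from 75.4 ± 9.91 to 93.2 ± 5.21 FPKM (SD, n = 6 each). The rise was 0.31 on the log2 scale (SE 0.065, limma adjusted p = 0.035) and was seen in 6 of 6 mice. The call was lost on leaving out mouse 2 (adjusted p = 0.142), mouse 4 (0.131), mouse 5 (0.0716) or mouse 6 (0.0668), with limma differences of 0.3 to 0.33, and with the interneuron marker covariate (0.22, adjusted p = 0.766). Another granin-like precursor, Vgf, was at 149 ± 9.27 and 178 ± 22.6 FPKM, higher in 6 of 6 mice, at 0.24 with a limma adjusted p of 0.104 (chosen after its values were seen, as the other gene of the group with an unadjusted p under 0.05). The remaining 8 lay between -0.07 for Ptprn2 and 0.14 for Syt4, which was at 0.05 without mouse 1.

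Propeptide processing had no call among 12 genes by limma, with 1 at an unadjusted p under 0.05 (8.05% of all loci). This was Ctsl, encoding cathepsin L, at 0.2 (adjusted p = 0.11), higher in 5 of 6 mice, and limma called it without mouse 6 (0.25, adjusted p = 0.0311). Ctsl was called in only 1 of 16 alternatives, and 0.25 was the highest of its estimates on leaving out a mouse. The call is no separate support for a difference. Without the replicate block the limma adjusted p of Ctsl was 0.999. Cpe, the carboxypeptidase that trims most of these peptides, was at 896 ± 50.7 and 902 ± 31.6 FPKM, with a difference of 0.01. Pcsk2, the convertase at the low end of the group, was at -0.08 (limma adjusted p = 0.783).

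For receptors, the other side of the signal, 12 of 23 genes were expressed highly enough to be tested. Limma called 0 (1.50% of all loci), with 1 at an unadjusted p under 0.05 (8.05% of all loci). That 1 was Vipr1, the most abundant receptor of vasoactive intestinal peptide, at 11.8 ± 2.06 and 10.3 ± 2.01 FPKM, lower in 6 of 6 mice, at -0.17 with a limma adjusted p of 0.24. Adcyap1r1, the PACAP receptor, had the highest level of all of them, 31.2 ± 0.84 against 30.8 ± 1.35 FPKM, a difference of -0.02. Cckbr followed at 30.2 ± 2.75 against 28.4 ± 3.71 FPKM, higher in 1 of 6 mice.

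Sstr4, the main somatostatin receptor here, had 19.4 ± 2.33 and 18.9 ± 3.15 FPKM. Crhr1, which binds corticotropin-releasing hormone, had 16.1 ± 2.9 and 14.7 ± 1.91, Npy1r 9.9 ± 1.99 and 10.9 ± 1.09, and the delta opioid receptor Oprd1 5.87 ± 0.802 and 5.71 ± 0.758. Receptors of the tachykinins and of dynorphin were scarce. In control, Tacr3, the highest of 3 tachykinin receptors, had 0.571 ± 0.0493 FPKM, Tacr1, the substance P receptor, 0.386 ± 0.0453 and Oprk1 0.977 ± 0.326. Npy6r and Cckar were listed at 0 in all 12 libraries. The tested receptors ran from -0.18 for Sstr3 to 0.14 for Npy1r with a median of -0.03, against 0.01 over all loci, and 10 of 12 lay below 0. The share of all loci below 0 is not given, and genes of a list share the same libraries. That count is therefore no sign of a shift of the receptors. Npy1r was at 0.07 without mouse 1.

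Among 12 genes of peptide degradation and binding 9 were tested and limma called 0, with 0 at an unadjusted p under 0.05 (8.05% of all loci). They ran from -0.06 for Ace, a peptidase, to 0.14 for Crhbp, which binds and holds corticotropin-releasing hormone, and Crhbp had an adjusted p of 0.743. Of 38 further precursor genes only 10 reached a mean of 1 FPKM, and limma called 0, with 0 at an unadjusted p under 0.05 (8.05% of all loci). Nts, encoding neurotensin, was highest at 0.3 (SE 0.19, adjusted p = 0.783; 0.13 without mouse 1), and Apln, encoding apelin, lowest at -0.01. Ucn3, Nms, Rln3 and Iapp were listed at 0 in all libraries. The median of the 10 was 0.09, with 9 above 0, a count that cannot be set against a share of all loci.

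Interneuron markers that are not peptides had no call among the 19 tested by limma, with 1 at an unadjusted p under 0.05 (8.05% of all loci). This was Dlx2, a transcription factor of interneurons, at 1.8 ± 0.328 and 2.68 ± 0.462 FPKM, higher in 6 of 6 mice, at 0.39 with an adjusted p of 0.0688. The lowest was Calb2, encoding calretinin, at -0.08, and -0.14 without mouse 1. The median was 0.06, beside 0.04 for the 10 precursors. Of the 19, 15 were above 0, and the share of all loci above 0 is not given. Whether the interneuron content of the hemispheres had a part in the precursor values was not tested beyond the covariate given above.

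**Figure D4:**
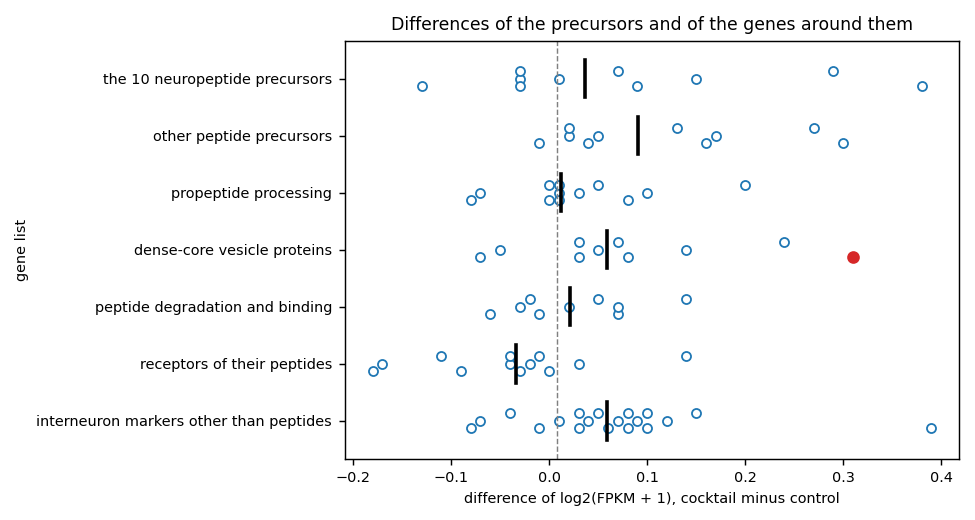
Fitted difference of log2(FPKM + 1), cocktail minus control (horizontal axis), of every tested gene in 7 lists. Open points did not pass the limma test, the filled point is Scg2, black bars are the median of each list and the dashed line the median of all loci, 0.01. The precursors spread from -0.13 to 0.38 around a median near that line.

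The loci whose level ran most like that of Crh across the 12 libraries were Mmp16, with a Pearson r of 0.875, Hibch with 0.865 and Scg2 with 0.862. These are correlations over libraries of both groups that share mice and depth, and they are given as a description. Mmp16, a membrane-bound metalloproteinase, was at 0.15 with a limma adjusted p of 0.712 (0.06 without mouse 1), and Hibch, an enzyme of valine breakdown, at 0.09 with 0.793.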

How the data were processed

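RNA was measured in 6 control and 6 cocktail hemispheres, 1 of each from every mouse, as single reads of poly-A RNA. Per the labels, the submitters' processing notes name BWA 0.6.1, TopHat 1.4.1, Cufflinks 1.3.0, HTSeq 0.6.1p1, DESeq2 1.6.3 and mm10. The authors removed ribosomal reads, aligned the rest and deposited FPKM values with an interval and a status per locus and library. The authors' DESeq2 table (mean count, fold change, p-value) holds their own comparison and was not used. The interval spans 2 Poisson SDs, from which reads were recovered, and of 36415 values under 20 reads 82.9% were whole within 0.05.

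Samples were grouped by their labels. Loci averaging at least 1 FPKM entered limma (version 3.58.1, R 4.3.3) on the log2(FPKM + 1) scale, in a model of mouse plus treatment, with a variance trend and Benjamini-Hochberg adjustment at 0.05. The fold changes are on that scale, which understates changes of low genes. The fit was tested on simulated data. The libraries were paired by mouse number, which is the replicate number in the sample titles. Correlations across genes of the deviations from group means ran from 0.216 to 0.406 for hemispheres with the same number (6 pairs, median 0.337). For different numbers they ran from -0.42 to 0.445 (30 pairs, median -0.0714). The highest value was thus between different numbers, so the correlations alone do not settle the pairing. Single genes were also tested by exact permutation of the signs of their within-mouse differences (two-sided).

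The precursors, the lists and the tests were chosen with earlier results of these data known. The genes named were the 10 precursors, every call in a list, the highest receptor of each peptide, the extremes of lists with no call, and the 3 loci most correlated with the precursor of the largest difference. Lists of excitatory neuron, astrocyte, microglia, oligodendrocyte, endothelial, striatum, hippocampus, thalamus, choroid plexus and blood markers had 0 calls by limma. They had 0 genes at an unadjusted p under 0.05 in all but the endothelial and blood lists, which had 1 each. Over all loci the share at that limit was 8.05%. Alternatives were the fit without the block, other pseudocounts, filters and scalings, no trend, voom, marker covariates and leaving out each mouse. Promoters came from a RefSeq table and exon overlaps from GENCODE M21. Python 3.11.15 and matplotlib 3.10.9 were used. Precursors in other cells or brain regions, and the imaging data, were not analysed here.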

Additional observations from a re-analysis of the deposited data

Results flagged for a closer look

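Of 30 sets of 6 values examined (the control levels, the cocktail levels and the within-mouse differences of the 10 genes), 2 held a sample far from the other 5, and chance flags about 1 in 20 such sets, or 1.5 of 30. Adcyap1 in the cocktail hemisphere of mouse 3 was at 9.98 FPKM, against 11.8 to 12.6 in the other 5 cocktail hemispheres, a gap of 0.686 of the range. Cort in the cocktail hemisphere of mouse 2 was at 15.8 FPKM, against 9.43 to 10.9 in the other 5, a gap of 0.761 of the range. No explanation of either value was tested.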

How the results depend on the processing

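No precursor was called under any alternative that kept all 6 mice. Leaving out each mouse in turn gave 0 to 2 calls among the precursors, the 2 being Crh and Adcyap1 without mouse 3, with ranges of 0.3 to 0.51 for Crh and 0.25 to 0.36 for Adcyap1. The count over all loci was 180. It was 88 with no replicate block, 118 with voom and 78 with the interneuron marker covariate, and 104 (without mouse 4) to 183 when a mouse was left out. The replicate block changed no call among the precursors.

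Of the values of single precursors under alternatives, 143 kept their direction and their side of the threshold, 2 became calls and 14 changed sign. With the interneuron covariate Cck was at 0.02, Tac1, at 0.15 without it, was at -0.003, Pdyn at 0.04 and Cort at 0.09. Npy was at -0.0028 after scaling by median of ratios, -0.03 after quantile normalization and -0.03 with the striatum covariate. Leaving out mice gave -0.08 to 0.02 for Cck, -0.03 to 0.04 for Npy, -0.08 to 0.02 for Pdyn and -0.13 to 0.04 for Cort. Scg2 kept its direction but was no call with no replicate block (adjusted p = 0.0895), without the filter (0.129), without the trend (0.0597) or with the striatum covariate (0.0664), all in limma. Cpe was at -0.07 with quantile normalization and -0.07 with the interneuron covariate, where Syt4 was at -0.0015, and Sstr4 was at 0.01 and Apln at 0.07 with the striatum covariate. Leaving out mice gave -0.0086 to 0.04 for Cpe, -0.09 to 0.05 for Sstr4 and -0.05 to 0.06 for Apln. Crh was not tested at a minimum of 5 FPKM. The causes were not tested. Of the neighbouring pairs in the order of levels 6 passed in control and 0 in cocktail, where the order and so the pairs differ in part. Cort and Crh had the fewest reads.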
